A study of Mus musculus with 4 samples.

Results

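The caveola genes examined here encode the caveolins (Cav1, Cav2 and Cav3), the cavins (Cavin1, Cavin2 and Cavin3, listed on the array under the older symbols Ptrf, Sdpr and Prkcdbp) and the EHD proteins Ehd1, Ehd2 and Ehd4. They were chosen by gene symbol, and all 9 listed genes had a probe, exactly 1 each, so the set is 9 of 17734 genes measured, and 9 of 26423 probes in the value table. The probe table also lists EHD3 separately, which matters because Ehd2 is an older alias of Ehd3 in RefSeq. With a single probe per gene, no second probe of the same gene was there to check any of the 9 values.

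The samples were 3T3-L1 cells, an established line of mouse preadipocytes that a hormone mixture drives to become adipocytes. All 4 samples received that mixture for 48 hours, which held insulin at 1 µg/ml, dexamethasone at 1 µM and isobutylmethylxanthine at 0.5 mM. By their titles and source names, 2 samples had the mixture alone (control) and 2 had in addition 13.47 µM berberine, a plant alkaloid, although the labels' shared treatment text names berberine for every sample. Setting them side by side is a comparison that bears on what berberine does to expression while differentiation is induced. RNA of each sample was labelled with Cy5 and hybridised to 1 array. No uninduced cells are among the samples used here, and the labels do not state whether samples of a group were separate cultures. The p-values therefore reflect array-to-array spread, possibly of technical origin alone.

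Caveolae are small flask-shaped pits of the plasma membrane that are especially dense in adipocytes. Caveolins are inserted into the membrane and cavins coat it from the cytosol, and Cav1 together with Cavin1 is needed to form the pits in most cells, while Cav3 takes the place of Cav1 in muscle. EHD proteins are membrane-bending ATPases: Ehd2 sits at the neck of caveolae and holds them at the surface, and Ehd1 and Ehd4 act mainly in recycling endosomes. In adipocytes caveolae are known for their part in fatty acid uptake, insulin receptor signalling and the storage of membrane area, and loss of Cavin1 in mice and humans causes lipodystrophy.

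The stretch of genome around the transcription start is shown for the members that fell with berberine and have a sequence in the RefSeq promoter table (build GRCm38.p6), since these are the members whose regulation a reader may want to inspect, and for Ehd4, which did not pass the test, beside them. Each window holds 250 bases before and 50 after the start of the gene, 300 in all, written 5′ to 3′ on the strand of the gene. Capitals mark matches on either strand to one of 8 fixed motifs, which were the GC box GGGCGG, the CCAAT box, the TATA box TATAAA, the AP-1 element TGACTCA, the E-box CACGTG, the C/EBP palindrome TTGCGCAA, the nuclear receptor half-site AGGTCA and the glucocorticoid receptor half-site AGAACA.
Cav2, chr6:17280935-17281234, plus strand: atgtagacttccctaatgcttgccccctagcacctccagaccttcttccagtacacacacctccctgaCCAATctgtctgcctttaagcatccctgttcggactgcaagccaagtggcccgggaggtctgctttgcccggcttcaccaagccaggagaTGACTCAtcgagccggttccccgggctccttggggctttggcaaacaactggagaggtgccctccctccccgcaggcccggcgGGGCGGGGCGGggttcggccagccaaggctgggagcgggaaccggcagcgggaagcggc
Cavin1, chr11:100970568-100970867, minus strand: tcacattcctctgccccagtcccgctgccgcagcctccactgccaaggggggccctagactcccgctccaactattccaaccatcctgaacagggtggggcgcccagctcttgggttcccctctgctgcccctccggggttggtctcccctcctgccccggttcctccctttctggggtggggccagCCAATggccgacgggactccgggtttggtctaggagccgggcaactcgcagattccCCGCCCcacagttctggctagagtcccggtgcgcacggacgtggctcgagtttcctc
Cavin2, chr1:51288876-51289175, plus strand: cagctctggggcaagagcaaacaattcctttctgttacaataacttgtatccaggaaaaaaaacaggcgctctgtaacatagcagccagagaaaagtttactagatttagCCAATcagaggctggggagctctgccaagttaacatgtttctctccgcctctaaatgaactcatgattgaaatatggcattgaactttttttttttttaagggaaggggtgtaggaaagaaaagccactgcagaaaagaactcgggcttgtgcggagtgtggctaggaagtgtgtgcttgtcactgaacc
Ehd2, chr7:15967486-15967785, minus strand: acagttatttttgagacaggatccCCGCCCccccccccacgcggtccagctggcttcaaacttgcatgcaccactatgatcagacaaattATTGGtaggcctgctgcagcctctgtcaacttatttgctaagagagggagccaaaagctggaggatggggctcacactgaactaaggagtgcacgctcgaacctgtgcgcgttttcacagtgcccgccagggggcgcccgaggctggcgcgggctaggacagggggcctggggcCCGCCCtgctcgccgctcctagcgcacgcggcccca
Ehd4, chr2:120154526-120154825, minus strand: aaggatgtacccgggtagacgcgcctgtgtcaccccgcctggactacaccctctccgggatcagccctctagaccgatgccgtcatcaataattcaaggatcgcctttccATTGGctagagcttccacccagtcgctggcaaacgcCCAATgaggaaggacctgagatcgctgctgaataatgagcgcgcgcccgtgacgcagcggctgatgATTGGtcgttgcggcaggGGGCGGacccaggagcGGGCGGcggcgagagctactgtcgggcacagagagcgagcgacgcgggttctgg

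Of the 9 members, 7 matched a window, with Cavin1 and Cav1 having 2 start sites each, and Cavin1's first is shown. Each of the 5 windows printed above holds a CCAAT box, which the windows of Cav1 and Cav3, not printed because their probes could not be read, do not hold. It lies in Cavin1 at bases -63 to -59 counted from the start and in Cavin2 at -140 to -136. That motif stood in 37.4% of all 32851 windows of this length, and it occurred 3 times at Ehd4, which did not pass the test. GC boxes stood at Cav2, Ehd2 and Ehd4 (2 each, the 2 of Cav2 sharing a base) and Cavin1 (1) but not at Cavin2, against 35.7% of all windows. Cav2 also holds 1 AP-1 element at -92 to -86, a motif found in 5.20% of windows. None of the 5 windows printed matched the TATA box, the E-box, the C/EBP palindrome or either receptor half-site in these letters, which stood in 13.6%, 7.15%, 0.183%, 16.3% and 19.0% of all windows. Of the windows not printed, the first of Cav1 holds 2 GC boxes, a TATA box and a glucocorticoid receptor half-site, and that of Cav3 a nuclear receptor half-site. The TATA box match of Cav1 is on the reverse strand at -221 to -216. Cavin2 stood apart in base composition, with 43.3% G and C and 4 CG dinucleotides, where the other 4 had 62% to 66.7% and 16 to 29 (median of all windows 52.7% and 7). In the annotation Cav2 and Cav1 are neighbours on chromosome 6, with no coding gene between them.

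Values below are log2 intensities after quantile normalization between arrays. A change is the berberine mean minus the control mean, and adjusted p-values come from limma over all 26408 probes fitted, with a threshold of 0.05. Intensities of different probes depend on the probe, so levels were compared between arrays for a given gene and not between genes. The 25th percentile of the normalized values, a log2 intensity of 6.58, served as a floor, and no fold is given for a probe under it in both groups. Log2 intensities correlated across probes at r = 0.991 between the control arrays, 0.994 between the berberine arrays and 0.912 to 0.918 between groups. The median change of all probes was 0.17, and 44.8% of them passed, 27.1% higher and 17.7% lower with berberine. That median was -0.05 in the deposited values, 0.52 after arrays were centred on their median and 0.26 after centring on the 75th percentile, so directions depend on the scaling. Lower calls were 39.5% of all calls, 64.2% in the deposited values and 23.6% after centring on the median. The number of calls was 11838, or 3704 without berberine replicate 1 and 3346 without berberine replicate 2.

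Berberine samples had less signal for 5 of the 9 caveola genes by limma, and no member rose. At an unadjusted p under 0.05 in that fit, Ehd4 and Cav3 were higher. After centring on the median 2 members fell and 4 rose, while 3311 of all 26408 probes fell and 10694 rose. After centring on the 75th percentile 3 members fell and 1 rose, while 3692 of all probes fell and 5570 rose. With log2(value + 16) or without dim probes 5 members fell and 1 rose. Of the probes then fitted, 4702 and 4382 fell and 7356 and 7280 rose. The values that follow are again those after quantile normalization. Cavin1 fell most, 10.8-fold, followed by Ehd1 at 4.70-fold, Cavin2 at 2.10-fold, Cav2 at 2.03-fold and Ehd2 at 1.95-fold. Cavin3 and Ehd4 were bright and did not pass, and the Cav1 and Cav3 probes read under the floor in both groups. The 5 falls are 55.6% of the members, beside the 17.7% of all probes that were lower, and at least a 2-fold fall was met by 4 members against 11.1% of all probes (22.0% changed at least 2-fold in either direction). The median change of the 9 was -0.96 against 0.17 for all probes. In 8 members the arrays of the 2 groups did not overlap, which was also so for 74.8% of all probes. Without control replicate 1 or 2 the members that passed were 3 in each case, and without berberine replicate 1 or 2 they were 2 in each case, all lower.

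**Figure D1:**
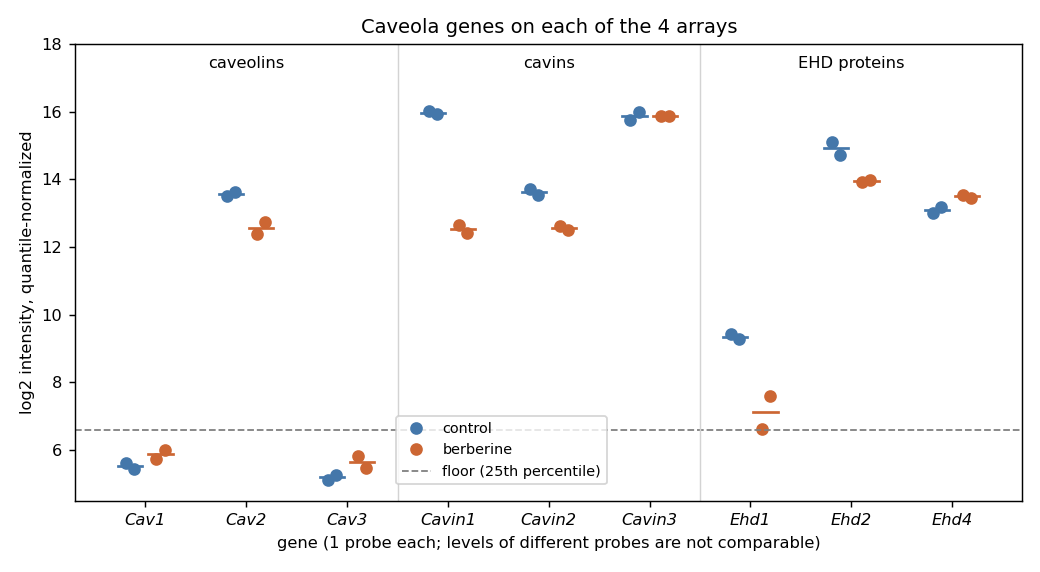
Quantile-normalized log2 intensity (vertical axis) of the 9 caveola genes, with a point for each of the 2 control (blue) and 2 berberine (orange) arrays, a short line at each group mean and a dashed line at the floor of 6.58. Cavin1 drops from about 15.97 to 12.54, Ehd1 falls to near the floor, Cavin3 lies at 15.87 and 15.88, and Cav1 and Cav3 lie under the floor.

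Among the caveolins, Cav2 was the member that could be read. Cav2, the partner that assembles with Cav1 into mixed oligomers, was at 13.52 and 13.64 on the control arrays and at 12.38 and 12.74 on the berberine arrays. Both berberine arrays lay below both control arrays, and the berberine pair was the wider of the pairs. The deposited intensities behind these values were 12776 and 10580 in control and 5158 and 7446 with berberine. The group means were 13.58 ± 0.082 (SD, n = 2) and 12.56 ± 0.25, a change of -1.02 (SE 0.17, 95% interval -1.46 to -0.59, adjusted p = 0.00784). This call was lost after centring on the median (-0.34, adjusted p = 0.146) or on the 75th percentile (-0.60, adjusted p = 0.0800) and when any array was left out (adjusted p 0.0516 to 0.0723).

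Cav1, the caveolin that builds caveolae outside muscle, gave almost no signal at its probe. Its normalized values were 5.62 and 5.43 in control and 5.73 and 6.01 with berberine, all under the floor of 6.58. The deposited intensities were 46 and 47 against 44 and 74, so the groups overlapped before scaling and lay apart after it. The change of 0.34 (SE 0.16) did not pass (adjusted p = 0.144), and the probe gives no fold for Cav1 in either direction. A dim probe shows only that little was measured at it, not that the transcript was low.

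Cav3, the muscle caveolin, was also under the floor on every array, at 5.12 and 5.27 in control and 5.81 and 5.47 with berberine. Its change of 0.45 (SE 0.17) did not pass (adjusted p = 0.0845), and no fold is given. Of 5 muscle markers, 3 had a probe: Ckm, the muscle creatine kinase, was under the floor in both groups, Acta1, skeletal actin, was at 7.35 and 7.43, and Des, the filament protein desmin, at 9.77 and 10.64 (adjusted p = 0.0263). The Cav1 and Cav3 values passed upward under 1 scaling, centring on the median (0.86 and 1.17, adjusted p = 0.0373 and 0.0220), where the median of all probes was itself 0.52.

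The cavins moved unequally, with the largest fall at the core coat protein. Cavin1, without which caveolae do not form, was at 16.02 and 15.93 on the control arrays and at 12.66 and 12.42 on the berberine arrays. Deposited intensities were 69491 and 52826 in control and 6308 and 5867 with berberine, so both treated arrays were far below both controls before any scaling. The means of 15.97 ± 0.065 and 12.54 ± 0.17 (SD, n = 2 each) gave a change of -3.43 (SE 0.14, 95% interval -3.80 to -3.06, adjusted p = 0.000167). Berberine thus left Cavin1 10.8-fold lower, with an interval of 8.34-fold to 13.9-fold. Falls of at least 8-fold that passed the test were seen at 2.90% of all probes. Cavin1 passed under all 11 alternatives, with changes from -3.53 to -2.75 and adjusted p up to 0.0235.

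Cavin2, a cavin that binds phosphatidylserine and shapes the caveolar membrane, was at 13.71 and 13.54 in control and 12.62 and 12.50 with berberine. The pairs were tight and did not overlap, and the deposited intensities of 14516 and 10014 fell to 6159 and 6221. The change was -1.07 (SE 0.13, 95% interval -1.42 to -0.72, adjusted p = 0.00350), a 2.10-fold fall. The call was lost after centring on the median (-0.40, adjusted p = 0.113) and without either berberine array (adjusted p = 0.0533 without replicate 1 and 0.0663 without replicate 2).

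Cavin3, a cavin first known as a binding partner of protein kinase C delta, was bright on every array, at 15.74 and 15.998 in control and 15.88 and 15.87 with berberine. Both berberine values lay between the control values. Its change was 0.0046 (SE 0.14, 95% interval -0.37 to 0.37, adjusted p = 0.982), so a change in either direction of up to 1.30-fold lies within the interval. In the deposited values the intensities were 57630 and 55464 in control and 61752 and 66853 with berberine, a change of 0.18 (adjusted p = 0.622). After centring on the median it was 0.75 and passed (adjusted p = 0.0164).

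Ratios between cavins on the same array do not move with a constant scaling of that array. The log2 ratio of Cavin1 to Cavin3 in the deposited values was 0.27 and -0.07 in control and -3.29 and -3.51 with berberine, an 11.3-fold lower ratio. For Cavin1 over Cavin2 the ratio was 5.11-fold lower with berberine, and for Cavin2 over Cavin3 it was 2.21-fold lower. Cav2 over Cavin1 was 5.31-fold higher. The groups lay apart in each of these ratios, but the smallest two-sided p of an exact permutation test with 2 arrays a group is 0.33, which was the value of all 7 ratios computed, so unequal change was measured here and not shown by a test.

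**Figure D2:**
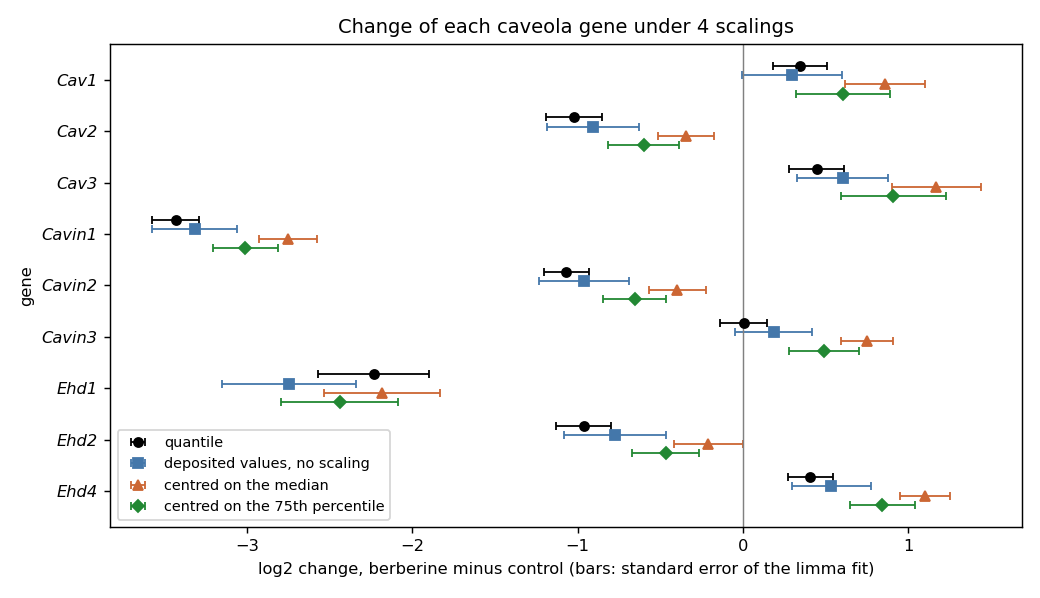
Log2 change, berberine minus control (horizontal axis), of each caveola gene under quantile normalization (black), in the deposited values (blue), and after centring arrays on the median (orange) or the 75th percentile (green), with bars for the standard error of the limma fit (n = 2 arrays per group). Cavin1 and Ehd1 are far below 0 in all 4, Cav2, Cavin2 and Ehd2 are below 0 by amounts that shrink after centring, and Cavin3 runs from 0.0046 to 0.75. Centring shifts all probes alike. Less the median change of all probes, Cav2, Cavin2, Ehd2 and Cavin3 were at -0.86, -0.91, -0.73 and 0.23 in the deposited values and after either centring. After quantile normalization they were at -1.19, -1.24, -1.13 and -0.16.

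Among the EHD genes Ehd1 and Ehd2 fell and Ehd4 did not pass. Ehd1, an ATPase of the endocytic recycling compartment that returns receptors to the surface, was at 9.43 and 9.27 in control and at 6.64 and 7.60 with berberine. The control pair was close, while the berberine arrays differed by 0.97 and replicate 1 lay just above the floor of 6.58. Deposited intensities went from 962 and 681 to 80 and 182. The change was -2.23 (SE 0.34, 95% interval -3.10 to -1.36, adjusted p = 0.00595), a 4.70-fold fall with an interval of 2.58-fold to 8.57-fold. It passed under all 3 other scalings (-2.75 to -2.18) and lost the call without control replicate 1 or 2 (adjusted p = 0.0729 and 0.0750).

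Ehd2, the EHD protein of the caveolar neck, was at 15.10 and 14.73 in control and 13.92 and 13.99 with berberine. Both treated arrays lay below both controls, and the control pair was the wider, with deposited intensities of 37336 and 22200 against 15737 and 18010. The change of -0.96 (SE 0.17, 95% interval -1.40 to -0.53, adjusted p = 0.00953) is a 1.95-fold fall. It did not pass in the deposited values (-0.77, adjusted p = 0.110), after centring on the median (-0.21, adjusted p = 0.422) or on the 75th percentile (-0.47, adjusted p = 0.132). Leaving out berberine replicate 1 or 2 also ended the call (adjusted p = 0.104 and 0.1001).

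Ehd4, a relative of Ehd1 in endosomal traffic, was at 13.00 and 13.17 in control and 13.55 and 13.44 with berberine. The berberine arrays were above the controls, also in the deposited intensities of 8988 and 7774 against 12008 and 12214. Its change of 0.41 (SE 0.13, 95% interval 0.06 to 0.75) did not pass (adjusted p = 0.0614). It passed after centring on the median (1.10, adjusted p = 0.00504) or the 75th percentile (0.84, adjusted p = 0.0205), with log2(value + 16) (adjusted p = 0.0491) and without dim probes (adjusted p = 0.0426). On the same array, the ratio of Ehd1 to Ehd4 in the deposited values was 9.72-fold lower with berberine, that of Ehd2 to Ehd4 2.48-fold lower and that of Ehd1 to Ehd2 3.92-fold lower. The ratios with Ehd1 rest on low berberine intensities of 80 and 182 with an unknown zero point, so their size is uncertain. The exact permutation test gave p = 0.33 for each ratio, the smallest it can give.

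**Figure D3:**
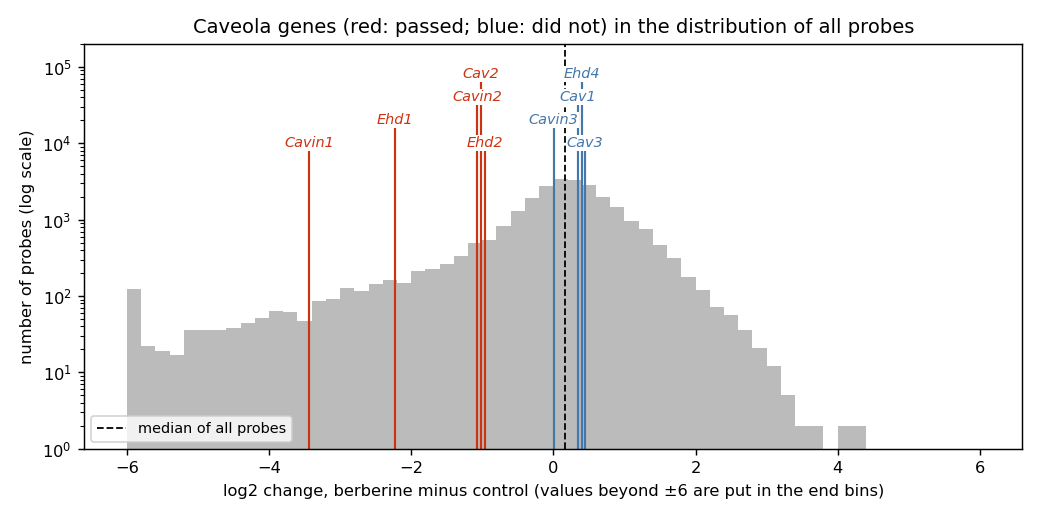
Number of probes (vertical log axis) by log2 change, berberine minus control (horizontal axis), for all 26408 probes, with lines at the caveola genes (red where adjusted p was under 0.05, blue where not) and a dashed line at the median of all probes, 0.17. Cavin1 at -3.43 and Ehd1 at -2.23 lie in the long lower tail, and 2.21% and 4.88% of all probes had a lower change.

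Genes whose pattern over the 4 arrays was most like that of a fallen member were taken as the 3 with the smallest distance after each probe was centred on its own mean. For Cavin1 these were Snhg12 (distance 0.030 on the log2 scale), Set (0.096) and Ssr2 (0.16). For Cav2 they were H2bc21 (0.090), Gm20594 (0.11) and Phf21a (0.12), for Cavin2 Pdzk1 (0.034), Bola3 (0.040) and Aurkb (0.055), and for Ehd2 Cog2 (0.050), Wdsub1 (0.053) and Ccdc59 (0.053). With 4 arrays in 2 groups, such likeness mostly repeats the size of the change, and it was sought among 11512 probes. Ehd1 was left out because its mean lay under the median level of all probes.

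Transcripts of 16 genes from a hand-made list of possible caveola partners were measured. Of these 16 measured caveola partner genes 9 rose, 4 fell and 3 did not pass, with a median change of 0.86, beside 30.0% higher, 18.2% lower and a median of 0.20 over all 17734 genes by 1 probe each. Ehd3, the EHD protein nearest in sequence to Ehd1, had a mean of 11.34 ± 0.086 on the control arrays and 9.42 ± 0.060 on the berberine arrays (SD, n = 2 each) and fell 3.80-fold (adjusted p = 0.000546). Dnm2, the ubiquitous dynamin that cuts vesicles off the membrane, fell 3.51-fold (adjusted p = 0.000764), while Dnm1, the dynamin best known from neurons, rose 2.50-fold (adjusted p = 0.00124). Prkca, a protein kinase C that Cavin2 binds, rose 3.20-fold from 9.90 to 11.58 (adjusted p = 0.000866). Ehbp1, which links EHD proteins to actin, and Src, the kinase that phosphorylates Cav1, had changes of -0.15 and 0.13 that did not pass (adjusted p = 0.489 and 0.433).

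Named outside the rule, after their values were seen, Cavin4, the muscle cavin listed as Murc, rose 1.77-fold (adjusted p = 0.00789). Its deposited intensities were 538 and 472 in control and 585 and 583 with berberine, only 1.16-fold higher on average. Pacsin2, which bends the caveolar neck, rose 1.85-fold at its brighter probe and by 0.69 on the log2 scale at the other (adjusted p = 0.00418 and 0.0127). Pacsin2 was at 13.46 in control and 14.35 with berberine at the first of these. Pacsin3, of the same family and also named after its values were seen, fell 2.11-fold (adjusted p = 0.00677). Ror1, under the floor with berberine, fell at least 1.29-fold (adjusted p = 0.0342). With Ehd3 and Dnm2 these are the 4 falls of the list, beside 9 rises. The partner list had more rises than falls under every scaling, with 6 and 3 in the deposited values, 11 and 2 after centring on the median and 8 and 3 after centring on the 75th percentile. Without berberine replicate 1 or 2 the counts were 4 and 2 in each case.

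Flotillins and their relatives form membrane scaffolds apart from caveolae. Of 7 measured genes of this kind 2 rose (28.6%, near the 30.0% of all genes) and 5 did not pass. Erlin1, an endoplasmic reticulum raft protein, rose 2.81-fold (adjusted p = 0.00208) and its partner Erlin2 1.60-fold (adjusted p = 0.0430). The flotillins were at 14.98 and 15.40 (Flot1) and at 14.13 and 14.52 (Flot2) in control and berberine, and did not pass (adjusted p = 0.0655 and 0.248). The 5 that did not pass at this threshold may still have differed, and 6 of the 7 were called higher after centring on the median. Without control replicate 1, 4 were higher and 1 lower, and without any other array 1 was higher.

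Caveolar cargo and the insulin signalling that has been placed at caveolae formed another list. Of 9 genes measured 3 rose (33.3%), 2 fell (22.2%) and 4 did not pass, shares near the 30.0% and 18.2% of all genes, with a median of -0.28 that turned to 0.48 after centring on the median and 0.22 after centring on the 75th percentile. Irs1, the docking protein of the insulin receptor, fell 3.35-fold, from 13.05 ± 0.29 to 11.30 ± 0.015 (SD, n = 2 each, adjusted p = 0.00175), and Cbl, an adaptor of the same receptor, fell 1.65-fold (adjusted p = 0.0148). Rapgef1, an exchange factor recruited downstream of Cbl, rose 3.26-fold (adjusted p = 0.00596), and Rhoq, its small GTPase target TC10, 1.68-fold (adjusted p = 0.0116). The remaining rise, named after its values were seen, was Slc2a4 at 1.49-fold (adjusted p = 0.0156). Its deposited intensities overlapped, at 1442 and 1115 in control and 1284 and 1387 with berberine. Slc27a1, a fatty acid transporter, and Crk, an adaptor, had changes of -0.28 each (adjusted p = 0.118 and 0.290). Cd36, a fatty acid carrier named after its values were seen, is counted by a probe whose berberine arrays differed by 1.36 (change -0.45, adjusted p = 0.503), while its other probe, only slightly dimmer in control, fell by 3.39 (adjusted p = 0.000358). All 5 calls were lost without berberine replicate 1 and without berberine replicate 2.

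In EHD-linked recycling, 1 of 13 measured genes rose (7.69%), 2 fell (15.4%) and 10 did not pass. Over all genes 30.0% rose and 18.2% fell. Micall1, which recruits Ehd1 to recycling tubules, rose 2.27-fold (adjusted p = 0.00242), and Rab11fip2, a Rab11 effector that binds EHD proteins, fell 3.47-fold (adjusted p = 0.00102). Rab8a, a GTPase of the same tubules, fell 3.48-fold at its brighter probe (-1.80, adjusted p = 0.000678) but rose at the other (1.23, adjusted p = 0.00173), so its direction is not settled on this array. Ehbp1l1 and Rab10, counted as not passing and named after their values were seen, each had another probe called lower (-2.89, adjusted p = 0.000221, and -0.45, adjusted p = 0.0423). Rab11b and Rab11a had changes of 0.37 and 0.66 that did not pass (adjusted p = 0.0760 and 0.0799). After centring on the median 8 of the 13 were called higher and 2 lower, and the 1 rise was lost without berberine replicate 1 or 2. With the replicate block or without control replicate 1, 3 were called higher.

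Clathrin-coated pits are the other main entry route. Of 15 measured genes 2 rose (13.3%), 2 fell (13.3%) and 11 did not pass, with a median of 0.14. Both shares were below the 30.0% and 18.2% of all genes. Both falls were subunits of the AP2 adaptor and were larger than that of Cavin1: Ap2s1 fell 48.8-fold, from 15.32 to 9.71 (adjusted p = 7.13e-05), and Ap2a2 33.4-fold, from 12.41 to 7.35 (adjusted p = 7.64e-05). Hip1, a clathrin and actin linker, rose 3.33-fold (adjusted p = 0.00154) and Ap2m1, another AP2 subunit, 1.61-fold (adjusted p = 0.0199). Cltc, the clathrin heavy chain, was at 15.15 and 15.13 (adjusted p = 0.916), and Picalm, a clathrin assembly protein, at 14.84 and 15.27 (adjusted p = 0.136). Higher calls numbered 8 after centring on the median, and 1 without control replicate 2, berberine replicate 1 or berberine replicate 2.

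**Figure D4:**
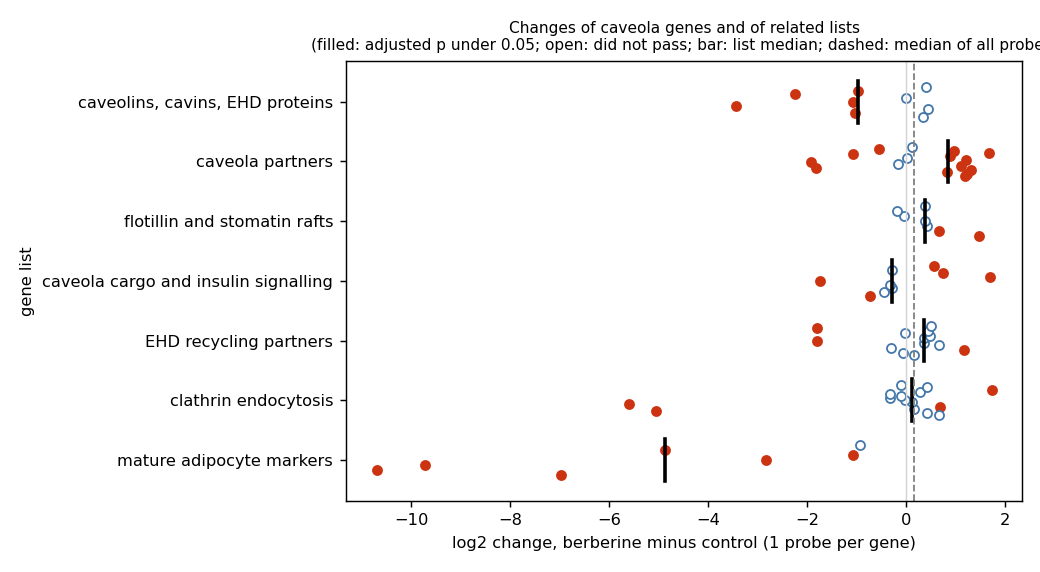
Log2 change, berberine minus control (horizontal axis), for the caveola genes, 5 related gene lists and mature adipocyte markers, with a point per gene (filled where adjusted p was under 0.05), a bar at each list's median and a dashed line at the median of all probes, 0.17. The caveola genes have a median of -0.96, the partner list of 0.86 and the adipocyte markers of -4.87.

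Of 7 markers of mature adipocytes 6 fell (85.7%) and Retn, the hormone resistin, did not pass (adjusted p = 0.0566). Over all 17734 genes 30.0% rose and 18.2% fell. The summed normalized intensity of these markers was 556520 to 581530 on the control arrays and 29721 to 31717 on the berberine arrays. Cidec and Plin1, proteins of the lipid droplet, fell 848-fold and 29.2-fold. With berberine Cidec was at 6.70, just above the floor of 6.58, so the size of its fall is uncertain. Of the secreted proteins, Cfd fell at least 717-fold, to under the floor, and Adipoq 125-fold. The summed intensity of the 9 caveola genes was 189480 to 190530 in control and 105610 to 106170 with berberine. Most of this drop came from Cavin1 (log2 means 15.97 and 12.54), while Cavin3, similarly bright in control, stood at 15.87 and 15.88. Such a sum follows its brightest probes and is not a fold for the genes as a group. The 7 measured preadipocyte and fibroblast markers were at 288880 to 298630 and 271100 to 273740. Of these, 4 were higher (57.1%: Pdgfrb, Cd34, Col1a1 and Col1a2), 2 lower (28.6%: Pdgfra and Dlk1) and Vim did not pass. Those counts were 1 higher and 1 lower without berberine replicate 1 or 2, and 2 higher and 1 lower in the deposited values. Dlk1 is counted by its brighter probe (-1.63, adjusted p = 0.000704), and its other probe did not pass (-0.20, adjusted p = 0.355). The part of adipocyte differentiation in the falls of caveola genes was not tested. In these bulk samples fewer cells of a type and less RNA per cell cannot be told apart.

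Markers of other cell types were summed in the same way, and these sums depend on the scaling. Over all genes 30.0% rose and 18.2% fell. Among the markers 50% rose for endothelial cells, 25% rose and 25% fell for macrophages, and 33.3% rose for muscle. The macrophage and muscle shares of rises were thus near that of all genes. In the deposited values the ratio of berberine to control was 1.71 for Cdh5 and 1.35 for Tek. It was 0.74 for Pecam1 and 0.76 for Kdr. For the macrophage markers it was 0.71 (Ptprc), 0.41 (Cd68), 1.03 (Adgre1) and 0.95 (Csf1r). For the muscle markers it was 1.22 (Des, with overlapping groups), 0.82 (Ckm) and 0.77 (Acta1). The 4 endothelial markers summed to 792 to 849 in control and 1157 to 1236 with berberine, with Cdh5 and Tek higher, a count of 1 whichever array was left out and in the deposited values. The 4 macrophage markers summed to 917 to 1064 and 941 to 982, with Csf1r higher, Cd68 lower and Adgre1 under the floor in both groups. The Csf1r call was lost with the replicate block, without any single array, after centring on the 75th percentile and with no scaling, and the Cd68 call without berberine replicate 1 or 2. The 3 muscle markers summed to 947 to 1308 and 1807 to 1856, most of it from Des, which was above the median level of all probes (8.35). Des was called higher, but not without berberine replicate 1 or 2, after centring on the 75th percentile or with no scaling.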

How the data were processed

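Arrays of 4 samples were analysed, 2 control and 2 berberine, grouped by their titles. The authors deposited probe intensities on a linear scale as whole numbers, some of them at or under 0. How the images were scanned, corrected for background and scaled is not given in the sources used here, which leaves the zero point unknown. The number of arrays limits the precision.

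Left out were 15 probes with a value at or under 0. The other 26408 were taken as log2 intensity with no pseudocount, quantile-normalized between arrays and fitted with limma 3.58.1 (R 4.3.3) by group, with Benjamini-Hochberg adjustment over all probes, 2 residual and 2.89 prior degrees of freedom. The fit was tested on simulated data in which few probes changed and each array was shifted by a constant. That test does not bear on the choice of scaling. A gene symbol stood beside 20377 probes (several symbols beside 0), and 6046 were unnamed here. 18213 symbols matched RefSeq, 2126 an older symbol and 38 neither. Alternatives were 3 other scalings, a replicate block, log2(value + 16), a filter on dim probes, another variance prior, a 2-fold minimum and each array left out.

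The members, lists, floor and tests were chosen with earlier results of these data known. Every probe of the members is named. In other lists a gene stands by its brightest probe, and up to 4 genes with the smallest p that passed and the 2 brightest that did not are named. Cell type markers are outside that rule.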

Additional observations from a re-analysis of the deposited data

How the results depend on the processing

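Of the 97 values of member probes under an alternative, 72 kept their direction and side of the threshold, 16 lost the call, 7 gained it and 2 changed sign, both at Cavin3 and not past the threshold: -0.11 without control replicate 1 and -0.0034 without berberine replicate 1, in a range of -0.11 to 0.11 with each array left out. The cause was not tested.

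Of the 9 members 5 passed, all lower. With a 2-fold minimum 4 did, in the deposited values 4 (without Ehd2, -0.77), and after centring on the 75th percentile 3 fell and 1 rose (Cav2 -0.60 and Ehd2 -0.47 lost the call, Ehd4 0.84 gained it). After centring on the median 2 fell and 4 rose: Cav2 (-0.34), Cavin2 (-0.40) and Ehd2 (-0.21) lost the call, and Cav1 (0.86), Cav3 (1.17), Cavin3 (0.75) and Ehd4 (1.10) gained it. With log2(value + 16), and without dim probes (Cav1 and Cav3 are then not tested), 1 rose, Ehd4 at 0.41 in both. Leaving out each array gave 2 to 3 lower and 0 higher members, each by a fit in which the lone array is assumed to vary like the other group. Changes then ran from -1.18 to -0.84 for Cav2 (0 of 4 passed), -1.16 to -0.99 for Cavin2 (2), -2.81 to -1.76 for Ehd1 (2), -1.16 to -0.78 for Ehd2 (2) and -3.53 to -3.30 for Cavin1 (4).

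Over all probes 11838 passed (7164 higher, 4674 lower), 6687 in the deposited values (2396 higher, 64.2% of calls lower against 39.5%), 14005 after centring on the median (23.6% lower), and 3346 to 10763 with an array left out (1218 to 6531 higher, 2128 to 4232 lower). Without berberine replicate 1 it was 3704 and without berberine replicate 2 it was 3346. With the replicate number as a block 12760 passed, and the block changed no call of a member. Same-numbered arrays did not deviate together (r = 0.0035), so the numbers were not taken as pairs. Of 240 counts of the other lists 170 stayed within 1.5 times. Signal over background limits Cav1, Cav3 and, with berberine, Ehd1.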
